A study of Mus musculus with 5 samples.

Results

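The motile cilia genes of the airway epithelium were examined in whole mouse lung across 5 strains. The set is a list of 39 genes for parts or regulators of beating cilia, and a gene entered when a probe set on the array carried its symbol as the single gene symbol. By this rule 34 of the 39 symbols were found, with 50 probe sets among the 34958 that carry 1 symbol. Where a gene had several probe sets, the 1 with the highest mean over the arrays stood for the gene. Of the 34 genes, 30 reached an intensity of 64 in at least 1 array, the floor used here for counting, and of all 18194 measured genes 11500 did so.

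The 5 arrays held lung RNA of untreated female mice, 1 array per strain. C57 was C57BL/6J. The 4B(+/+) and 4B(-/-) lines were wild type and knockout for PDE4B, and the 4D(+/+) and 4D(-/-) lines were wild type and knockout for PDE4D, both phosphodiesterases that break down cyclic AMP. All 4 lines came from a C57BL/6 × 129/Ola background and had at least 11 generations of backcrossing to C57BL/6J. No age is stated for the mice, nor which part of either gene was deleted. Each array measured a mixture of RNA from 3 of 5 frozen lungs, picked after a check of RNA quality, so the spread between animals was not measured and no difference below has a replicate check or a p-value. Intensities are the authors' RMA values on a linear scale, and differences are given as folds or as log2 differences between 2 arrays.

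Motile cilia cover the multiciliated cells of the airway and beat to move mucus out of the lung. Each carries outer microtubule doublets and a central pair, and dynein arms on the doublets slide them against each other while radial spokes and the central apparatus control the beat. FOXJ1 and the RFX factors switch on the genes of this machine. Cyclic AMP is known to raise the beat frequency of airway cilia through protein kinase A.

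RFX factors bind a site called the X-box, and the promoter letters of the members are shown for that reason. RefSeq promoter windows of assembly GRCm38.p6, each 300 bases long with 250 before and 50 after a transcript start, were given for 34 of the genes, counting Dnai1 and Dnai2 under their RefSeq names Dnaic1 and Dnaic2. The half-site GTTGCC, searched on both strands and thus also as GGCAAC, occurred in 18 of these 34 genes (52.9%) and in 14.1% of the 27025 genes with a window. It occurred in 57 of 119 other cilia genes (47.9%). Half-sites within the last 100 bases before a start were found for 8 of the members over the floor, and the 10 sites are printed on the gene's strand with 12 bases on either side, the half-site in capitals.
Enkur, chr2:21205382-21205411, minus strand, site at -34: gataaaagccagGTTGCCccgtctcctagc
Pifo, chr3:106001492-106001521, minus strand, site at -12: ttccgttcccttGGCAACgtagtacacaga
Tekt2, chr4:126325767-126325796, minus strand, site at -96: cgcagctgcgcgGTTGCCtggctaagctga
Tekt2, chr4:126325693-126325722, minus strand, site at -22: gggcggttgctcGGCAACcagagccgcaaa
Lrrc23, chr6:124779749-124779778, minus strand, site at -39: cgtcccgcccctGTTGCCataacaacaata
Ccdc113, chr8:95534082-95534111, plus strand, site at -6: ttcagttgtctaGGCAACgcgcctcagggt
Hydin, chr8:110266952-110266981, plus strand, site at -13: tgcggttgctgtGGCAACagatggtaacaa
Mns1, chr9:72438445-72438474, plus strand, site at -72: gcgctcctgcctGGCAACgaagactctccg
Tekt1, chr11:72361900-72361929, minus strand, site at -35: tcttctaactagGGCAACgttgcgtccgtc
Tekt1, chr11:72361880-72361909, minus strand, site at -15: tgcgtccgtccgGTTGCCatagagaccgca

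Positions give the first of the 6 bases, counted back from the transcript start. Tekt1 and Tekt2 each held 2 half-sites in this stretch, in opposite orientation. For longer context the 100 bases before the outermost start are shown for Enkur, at chr2:21205366-21205465 on the minus strand, and for Tekt2, at chr4:126325689-126325788 on the minus strand.
Enkur: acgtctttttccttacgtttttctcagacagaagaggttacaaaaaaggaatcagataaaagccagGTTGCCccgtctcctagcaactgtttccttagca
Tekt2: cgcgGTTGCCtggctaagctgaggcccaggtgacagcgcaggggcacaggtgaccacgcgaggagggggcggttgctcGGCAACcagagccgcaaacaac

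The forkhead motif TGTTTAC, also read as GTAAACA, occurred in Ak7, Cfap43 and Sntn, 3 of 34 genes (8.82%), and in 4.05% of all genes. The longer core of the X-box, searched on both strands and able to overlap the half-site, was found in 5 of 34 (14.7%) and in 7.15% of all. The median GC content of the windows was 54.0% for the members and 52.7% for all promoters. A match describes letters and does not show binding.

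Across the 5 arrays the members made a shallow gradient. The 4B(-/-) array was the highest for 18 of 30 members (60.0%), against 28.4% of all genes over the floor. The 4D(-/-) array was the lowest for 18 of 30 (60.0%), against 29.9% of all genes. Both held together for 15 of 30 members and for 14.0% of all genes. These 15 were Rsph1, Rsph9, Lrrc23, Ccdc153, Tekt1, Tekt4, Cfap52, Cfap126, Enkur, Pifo, Cfap43, Ak7, Ak8, Stk33 and Tppp3. The differences were small: the highest array exceeded the lowest by a median of 0.40 on the log2 scale, with a range over members from 0.06 to 0.77, and the median over all genes was 0.29. In whole lung, fewer ciliated cells and less RNA per cell cannot be told apart.

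**Figure D1:**
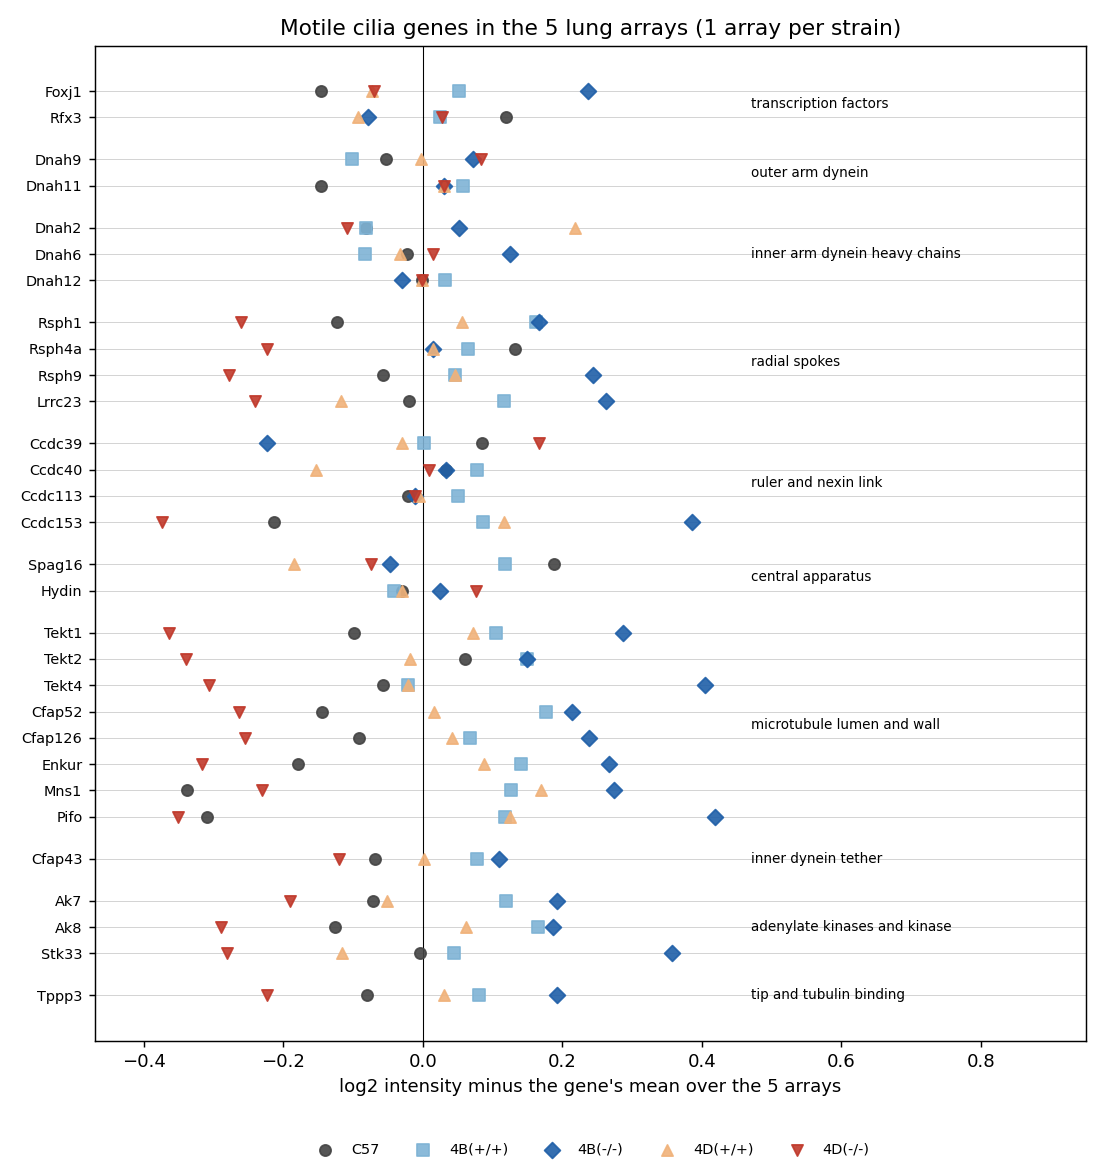
Log2 intensity of each of the 30 motile cilia genes minus that gene's mean over the 5 arrays, grouped by role, with 1 point per array and no error bars because each strain has 1 array. The 4B(-/-) points lie farthest right for 18 genes and the 4D(-/-) points farthest left for 18.

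Among the regulators, Foxj1, the master transcription factor of motile ciliogenesis, read 282 in C57, 324 in 4B(+/+), 368 in 4B(-/-), 297 in 4D(+/+) and 298 in 4D(-/-). It was thus highest in 4B(-/-), 1.14-fold above 4B(+/+), while both 4D arrays were nearly equal. Rfx3, an X-box factor, read 215, 201, 187, 185 and 202 in the same order and was highest in C57. A dim Rfx3 probe set, at 15.7 to 17.1, was highest in 4D(+/+). The probe sets of Rfx2, its relative, stayed below the floor, the brightest at 46.6 to 48.2.

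The dynein heavy chains varied little. Dnah9, an outer arm heavy chain, read 176 in C57, 170.0 in 4B(+/+), 192 in 4B(-/-), 182 in 4D(+/+) and 193 in 4D(-/-). Dnah11, another outer arm heavy chain, ranged from 60.7 to 69.9, and the probe set of Dnah5 read 55.2 in all 5 arrays, below the floor. Of the inner arm heavy chains, Dnah6 read 218 in C57, 209 in 4B(+/+), 242 in 4B(-/-), 217 in 4D(+/+) and 224 in 4D(-/-), and Dnah12 ranged from 70.0 to 73.0. Dnah6 was thus highest in 4B(-/-). Dnah2 read 66.2 in 4D(+/+) and between 52.8 and 59.0 elsewhere, so it reached the floor in 1 array only. The widest of these 5 ranges, that of Dnah2, was 0.33 on the log2 scale, and several of these probe sets lay near the floor.

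The outer arm intermediate chains were not matched by symbol, but RefSeq gives Dnai1 as a synonym of Dnaic1 and Dnai2 of Dnaic2, so their values are given without being counted. Dnaic1 read 48.2 in C57, 65.4 in 4B(+/+), 63.0 in 4B(-/-), 49.4 in 4D(+/+) and 52.9 in 4D(-/-). Dnaic2 ran the other way from most members, with 195 in C57, 174 in 4B(+/+), 130 in 4B(-/-), 144 in 4D(+/+) and 187 in 4D(-/-). The probe sets used for both are of a class whose probes can match other transcripts too. Dnah7b, Cfap44 and Sntn were not matched by symbol either, so only their promoter windows were examined.

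Radial spoke genes followed the gradient more clearly. Rsph1, a spoke head protein, read 529 in C57, 644 in 4B(+/+), 646 in 4B(-/-), 599 in 4D(+/+) and 481 in 4D(-/-). Rsph9, also of the spoke head, read 334, 359, 412, 359 and 287 in that order. Lrrc23, a spoke component, ranged from 285 in 4D(-/-) to 404 in 4B(-/-). Rsph4a was likewise lowest in 4D(-/-), at 222, but highest in C57, at 284.

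In the ruler and nexin link group the members parted. Ccdc153, a subunit of the nexin-dynein regulatory complex, read 1189.9 in C57, 1465 in 4B(+/+), 1803 in 4B(-/-), 1496 in 4D(+/+) and 1065 in 4D(-/-). Both wild-type lines lay close together, 4B(-/-) was 1.23-fold above its wild type, and 4D(-/-) was 1.40-fold below its own. Ccdc39, which with Ccdc40 forms the ruler that spaces the spokes and inner arms, ran in reverse in the probe set used. Its lowest value was 179 in 4B(-/-) and its highest 234 in 4D(-/-). Other Ccdc39 probe sets lay far below the floor and did not show this, 1 at 8.2 in all arrays and 1 at 5.1 to 7.0. Ccdc40 ranged from 103 to 121 and Ccdc113, an axonemal coiled-coil protein, from 106 to 111.

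Of the central apparatus genes, Spag16 read 213 in C57, 203 in 4B(+/+), 181 in 4B(-/-), 165 in 4D(+/+) and 178 in 4D(-/-), with C57 on top and 4D(+/+) lowest. Its other probe sets lay below the floor. The brightest of them, at 30.9 to 41.7, was highest in 4D(+/+), while 1 at 8.9 to 12.5 was lowest there. Hydin ranged from 75.6 to 82.0 and was highest in 4D(-/-). The probe sets of Spag17 and Spag6 stayed below the floor, the brightest at 41.7 to 46.4 and at 4.5 to 7.6. A probe set of the paralog Spag6l, which is not in the set and was looked up after the Spag6 values were seen, read 164 in C57, 213 in 4B(+/+), 233 in 4B(-/-), 197 in 4D(+/+) and 148 in 4D(-/-). Spag6l was thus highest in 4B(-/-) and lowest in 4D(-/-).

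The genes of the microtubule lumen and wall, proteins that line and stiffen the doublets, held the widest differences. Pifo read 352 in C57, 473 in 4B(+/+), 583 in 4B(-/-), 475 in 4D(+/+) and 342 in 4D(-/-). Tekt4, a tektin filament protein, read 132, 136, 182, 136 and 111 in that order. Its 4B(-/-) value stood alone, 1.34-fold above 4B(+/+), the widest difference in this comparison among the 30 members over the floor. The probe set of Spag6, far below the floor, was 1.68-fold apart. Tekt1 read 134 in C57, 154 in 4B(+/+), 175 in 4B(-/-), 150 in 4D(+/+) and 111 in 4D(-/-), and Tekt2 was lowest in 4D(-/-), at 80.8 against 101 to 113 in the other 4 arrays. Both tektins thus had their low value in the same array.

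Mns1 read 84.5 in C57, 117 in 4B(+/+), 129 in 4B(-/-), 120 in 4D(+/+) and 91.1 in 4D(-/-), the only gene of this group with its lowest value in C57. Cfap126 read 573 in C57, 639.9 in 4B(+/+), 720.5 in 4B(-/-), 629 in 4D(+/+) and 511.8 in 4D(-/-). Enkur ranged from 295 in 4D(-/-) to 442 in 4B(-/-) and Cfap52 from 250 to 349, so that all 3 had the same 2 arrays at the ends. The second Cfap52 probe set, which passed the floor narrowly, read 42.0 in C57, 65.9 in 4B(+/+), 65.8 in 4B(-/-), 55.8 in 4D(+/+) and 33.0 in 4D(-/-). Its low arrays were the same as those of the first.

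**Figure D2:**
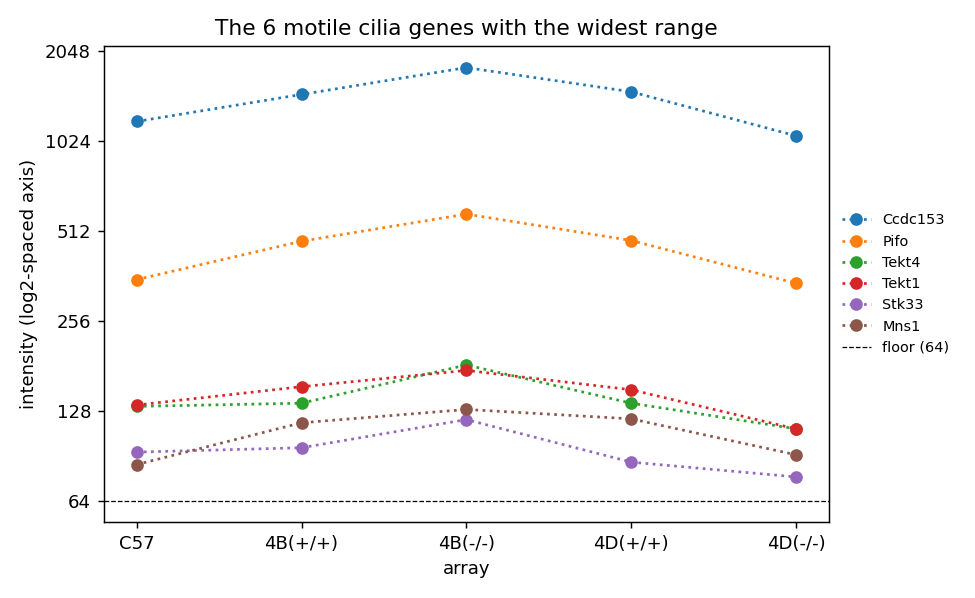
Intensity of the 6 motile cilia genes whose highest array exceeds the lowest by at least 1.5-fold, in the 5 arrays on a log2-spaced axis, with dotted lines joining the values of 1 gene and a dashed line at the floor of 64. Each gene peaks in 4B(-/-), and heights of different genes cannot be compared because each has its own probes.

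The remaining members were enzymes and tubulin binders. Ak7, an adenylate kinase that recycles adenine nucleotides in the cilium, read 638 in C57, 728 in 4B(+/+), 766 in 4B(-/-), 647 in 4D(+/+) and 588 in 4D(-/-). Ak8, a second one, ranged from 59.1 to 82.2, and the kinase Stk33 from 76.8 to 119.5, both with 4D(-/-) lowest and 4B(-/-) highest. Tppp3, which binds and bundles tubulin, read 2314 in C57, 2586 in 4B(+/+), 2796 in 4B(-/-), 2499 in 4D(+/+) and 2096 in 4D(-/-). Cfap43, of the tether of an inner dynein, read 141 in C57, 156 in 4B(+/+), 159.5 in 4B(-/-), 148 in 4D(+/+) and 136 in 4D(-/-). All 5 genes thus placed the knockouts at opposite ends.

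The knockout of PDE4B was first set against its own wild-type line. Most members were slightly higher in 4B(-/-) than in 4B(+/+), 21 of 30, against 52.1% of all genes, and 9 were lower, against 39.8%. The median log2 difference was 0.09 for the members and 0.01 for all genes, with member values from -0.23 for Ccdc39 to 0.43 for Tekt4. No member, 0 of 30, differed by 1.5-fold in either direction, where 0.383% of all genes were higher and 0.930% lower by that much. At a lower threshold, a log2 difference of 0.32, 1 member was higher, Tekt4, against 2.61% of all genes. Stk33 (1.24-fold), Ccdc153 (1.23-fold) and Pifo (1.23-fold) came next.

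For PDE4D the difference ran the other way. Of 30 members 20 were lower in 4D(-/-) than in 4D(+/+), against 47.2% of all genes, 8 were higher, against 45.6%, and 2 were equal. The median was -0.20 for the members and 0.00 for all genes, with values from -0.49 for Ccdc153 to 0.20 for Ccdc39. Again 0 of 30 passed 1.5-fold, against 1.10% of all genes higher and 4.53% lower. At the lower threshold 9 members were lower and 0 higher, against 12.7% of all genes lower and 6.47% higher. These 9 were Ccdc153 (1.40-fold), Pifo (1.39-fold), Tekt1 (1.35-fold), Enkur and Mns1 (each 1.32-fold), Ak8 (1.28-fold), and Dnah2, Rsph9 and Tekt2 (log2 differences of -0.33, -0.32 and -0.32). Rsph1 lay just outside. Dnah2 reached the floor only in 4D(+/+), the higher array of this comparison, so its entry in the count rested on that value.

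C57 served as the common base for where cilia genes stood in lines without a knockout. In 4B(+/+), 22 of 30 members were higher than in C57, against 45.7% of all genes, and 7 were lower, against 46.2%. The median was 0.12, with values from -0.09 to 0.46. In 4D(+/+), 19 were higher, against 42.5%, and 9 lower, against 50.6%, with a median of 0.06. At 1.5-fold 0 members passed in either line, where 2.23% and 4.25% of all genes were higher and 1.33% and 1.24% lower. At the lower threshold 2 members were higher in 4B(+/+), against 6.80%, and in 4D(+/+) 3 were higher and 1 lower, against 10.3% and 8.23%. Mns1 was 1.38-fold and 1.42-fold above C57 in the 2 lines and Pifo 1.34-fold and 1.35-fold, while Spag16 was 1.29-fold lower in 4D(+/+). Both comparisons use the same C57 array.

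Against C57 the knockouts lay on opposite sides. In 4B(-/-) 24 of 30 members were higher than in C57, against 51.5% of all genes, and 5 lower, against 43.6%, with a median of 0.27. Pifo (1.66-fold), Mns1 (1.53-fold) and Ccdc153 (1.51-fold) passed 1.5-fold, 3 of 30, against 2.53% of all genes, and 0 members were lower by that much, against 3.57%. At the lower threshold 10 members were higher, against 11.3%. In 4D(-/-) 8 were higher, against 39.3%, and 21 lower, against 56.4%, with a median of -0.12. There 0 passed 1.5-fold, against 1.37% higher and 0.791% lower, and 2 passed the lower threshold downwards, Tekt2 (1.32-fold) and Rsph4a (1.28-fold), against 5.39%.

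The widest separation was between the knockouts themselves. In 4D(-/-) 23 of 30 members were lower than in 4B(-/-), against 55.0% of all genes, and 5 were higher, against 39.9%. The median was -0.40 for the members and -0.03 for all genes. Pifo (1.70-fold), Ccdc153 (1.69-fold), Tekt4 (1.64-fold), Tekt1 (1.57-fold) and Stk33 (1.56-fold) were lower by at least 1.5-fold, 5 of 30, against 2.97% of all genes, and 0 were higher, against 2.80%. Enkur, with a log2 difference of -0.58, stopped just short. At the lower threshold 16 were lower and 1 higher, Ccdc39, against 14.1% and 9.05%.

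The wild-type lines differed little from each other in these genes. In 4D(+/+) 7 members were higher than in 4B(+/+), against 41.7% of all genes, and 21 lower, against 46.7%, with a median of -0.05. At 1.5-fold 0 members passed, against 1.57% higher and 0.348% lower. All 8 comparisons draw on the same 5 arrays, so they are not independent of each other.

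**Figure D3:**
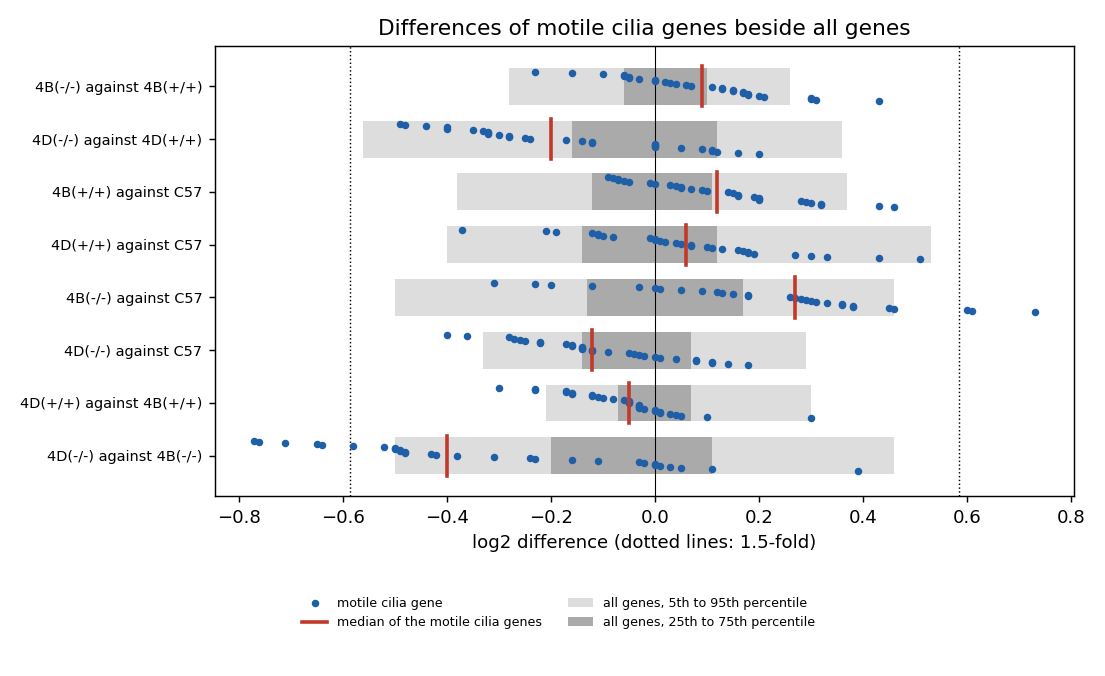
Log2 differences of the 30 motile cilia genes in the 8 comparisons (blue points, sorted within a row) with their median (red line), over the spread of the 11500 genes that reached the floor (grey bars, 25th to 75th and 5th to 95th percentile). The median lies at 0.09 for the PDE4B knockout, -0.20 for the PDE4D knockout and -0.40 between the knockouts, and the dotted lines mark 1.5-fold.

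The separation of the knockouts was described by role. The median log2 difference of 4D(-/-) from 4B(-/-) was -0.54 for the 8 genes of the microtubule lumen and wall, -0.48 for the 3 kinases and -0.47 for the 4 spoke genes. It was -0.11 for the 3 inner arm heavy chains, 0.01 for the 2 outer arm heavy chains and 0.01 for the 2 central apparatus genes. For the 4 ruler and nexin link genes it was -0.01, with Ccdc153 and Ccdc39 at opposite ends, and for the 2 transcription factors -0.10. The single genes of the tether, Cfap43, and of tubulin binding, Tppp3, had -0.23 and -0.42. Members whose promoter window held the half-site GTTGCC, 12 over the floor, had a median of -0.50, and the 13 without it -0.16, with ranges from -0.77 to 0.11 and from -0.52 to 0.39. Foxj1, Rsph1, Rsph4a, Tppp3 and Stk33 are in neither group. The ranges overlap, and whether promoter letters bear on the difference was not tested.

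A wider list of 159 other cilia genes was set beside the members, with 122 matched by symbol and 94 over the floor. It was compiled from general knowledge of cilia. In 4B(-/-) 0 of 94 passed 1.5-fold against 4B(+/+), with a median of 0.07. In 4D(-/-) 3 of 94 were lower than in 4D(+/+), which is no larger a share than the 4.53% of all genes, and 0 were higher, against 1.10%. The median was -0.19, and the 3 were Mlf1 (1.85-fold), Morn5 (1.66-fold) and Capsl (1.55-fold), all genes typical of multiciliated cells. Morn5 read 70.8 in C57, 104 in 4B(+/+), 137 in 4B(-/-), 105 in 4D(+/+) and 63.0 in 4D(-/-). Mlf1 read 334, 419, 457, 589 and 318 and so was highest in 4D(+/+).

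Against C57, 1 of the 94 was higher in 4B(+/+), Cfap45 of the doublet lumen (1.59-fold), against 2.23% of all genes. In 4D(+/+) 2 were higher, Mlf1 (1.76-fold) and the chaperone gene Dnajb1 (1.52-fold), against 4.25%. In either line 0 were lower, against 1.33% and 1.24%. In 4B(-/-) 5 of 94 were higher than in C57, against 2.53% of all genes, and 0 lower, against 3.57%. They were led by Morn5 (1.94-fold), Dnah7a (1.87-fold) and Spaca9 (1.63-fold). In 4D(-/-) 1 was lower, Dnah8 (1.54-fold), against 0.791%, and 0 higher, against 1.37%. Between the wild-type lines 0 passed, against 1.57% higher and 0.348% lower in 4D(+/+). Between the knockouts 14 of 94 were lower in 4D(-/-), against 2.97% of all genes, led by Morn5 (2.18-fold), Dnah7a (1.99-fold) and Fam183b (1.88-fold). The RFX family gene Rfx7 (1.55-fold) was the 1 gene higher, against 2.80%. Dnah7a reached the floor in 4B(-/-) only, at 72.6 against 36.6 to 55.0 in the other arrays. Spata17, also among the 14, did so too, at 67.1 against 44.3 to 62.0. The entry of Dnah7a and Spata17 in these counts thus rested on the array in which they were high.

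By role, the other spoke and nexin link genes had a median of -0.47 between the knockouts over 10 genes, and those of dynein docking and further dyneins -0.45 over 7. Those of the microtubule lumen and wall had -0.45 over 8. Dynein assembly factors had -0.32 over 8 genes, central apparatus genes -0.25 over 8 and intraflagellar transport, the cargo system that builds cilia, -0.21 over 22. The list of regulators, which also takes in the RFX family genes Rfx1, Rfx5 and Rfx7, had -0.04 over 9. Its values were spread from -0.60 for Myb to 0.63 for Rfx7. The remaining genes of multiciliated cells, the group of Mlf1 and Morn5, had -0.31 over 22. Of the 94, 4B(-/-) was highest for 54 (57.4%), against 28.4% of all genes, and 4D(-/-) lowest for 67 (71.3%), against 29.9%. Dnah7a, Spata17, Ropn1l and Ulk4 are in both counts and reached the floor in 4B(-/-) only. Their place among the 54 thus rested on that array being high.

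Other lung lists were measured in the same arrays. Club and secretory genes of the airway, 14 of 14 over the floor, had medians of -0.06 in the PDE4B and 0.02 in the PDE4D comparison, and the second turned to -0.09 with the median of all probe sets of a gene. Of these, Scgb3a1 (1.61-fold), Reg3g (1.54-fold) and Agr2 (3.37-fold) were lower in 4D(-/-) than in 4D(+/+) by at least 1.5-fold. By that much 4.53% of all genes were lower, and 0 of the 14 were higher, against 1.10% of all genes. Scgb3a2, Cyp2f2, Bpifa1 and Gabrp were lower by less. Muc5b, Ces1d, Aldh1a1, Sec14l3, Bpifb1, Hp and Scgb1a1 were higher in 4D(-/-), with log2 differences from 0.04 to 0.32. The defining gene of the club list, Scgb1a1, read 24948 in C57, 24461 in 4B(+/+), 23282 in 4B(-/-), 24573 in 4D(+/+) and 25287 in 4D(-/-). Airway smooth muscle genes, 8 of 8, had medians of 0.02 and -0.40. Between the knockouts Tagln, Cnn1, Actg2 and Synpo2 were lower in 4D(-/-) by at least 1.5-fold, against 2.97% of all genes, and the median of the 8 genes was -0.47. Their summed intensity, in which Acta2 weighed most, was 13837 in C57, 15057 in 4B(+/+), 15330 in 4B(-/-), 14433 in 4D(+/+) and 12368 in 4D(-/-). Acta2, their defining gene, read 7534 in C57, 7943 in 4B(+/+), 7614 in 4B(-/-), 7534 in 4D(+/+) and 7228 in 4D(-/-), a far narrower range. Gene by gene, only Tagln, Cnn1 and Actg2 had 4B(-/-) highest and 4D(-/-) lowest, as did 15 of the 30 members and 46 of the 94 other cilia genes. Acta2 and Synpo2 were highest in 4B(+/+), Myh11 and Des in 4D(+/+), and Lmod1 was lowest in C57. The 46 include Dnah7a, Spata17, Ropn1l and Ulk4, which reached the floor in 4B(-/-) only. Genes of epithelium in general, 8 of 8, had -0.01 and -0.20, and Epcam read 1070.0, 1251, 1163.5, 1352 and 1016 in that order. Their part in the cilia differences was not tested.

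Alveolar lists leaned the other way in the PDE4D comparison. Type 2 genes, 7 over the floor, had medians of 0.00 for PDE4B and 0.16 for PDE4D, and type 1 genes, 8 over the floor, 0.07 and 0.21. Their defining genes varied little: Sftpc ranged from 24527 in 4D(-/-) to 24896 in 4B(+/+), and Ager from 18484 in 4D(+/+) to 20143 in C57. Basal and squamous genes, 6 over the floor, had -0.23 and -0.64, and cartilage genes, 10 over the floor, -0.55 and -0.12. With the median of probe sets the PDE4D values were -0.40 for basal and 0.05 for cartilage genes, the latter with its direction turned. Krt5 read 69.1 in C57, 100.2 in 4B(+/+), 95.4 in 4B(-/-), 113 in 4D(+/+) and 95.8 in 4D(-/-), and Col2a1 read 42.0, 142, 78.4, 35.0 and 98.3. Col2a1 was thus higher in the PDE4D knockout than in its wild type and lower in the PDE4B knockout than in its own. Glandular secretory genes, 6 over the floor, had -2.97 and -1.01, and Lipf read 5390.0 in C57, 9517 in 4B(+/+), 234 in 4B(-/-), 13730.0 in 4D(+/+) and 5056 in 4D(-/-). The thyroid gene Tg was lower in both knockouts, at 448 and 1687 against 3065 to 7717. Of the sperm genes Prm1 alone reached the floor, at 67.4 to 75.8. The part of these lists in the cilia values was not tested.

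**Figure D4:**
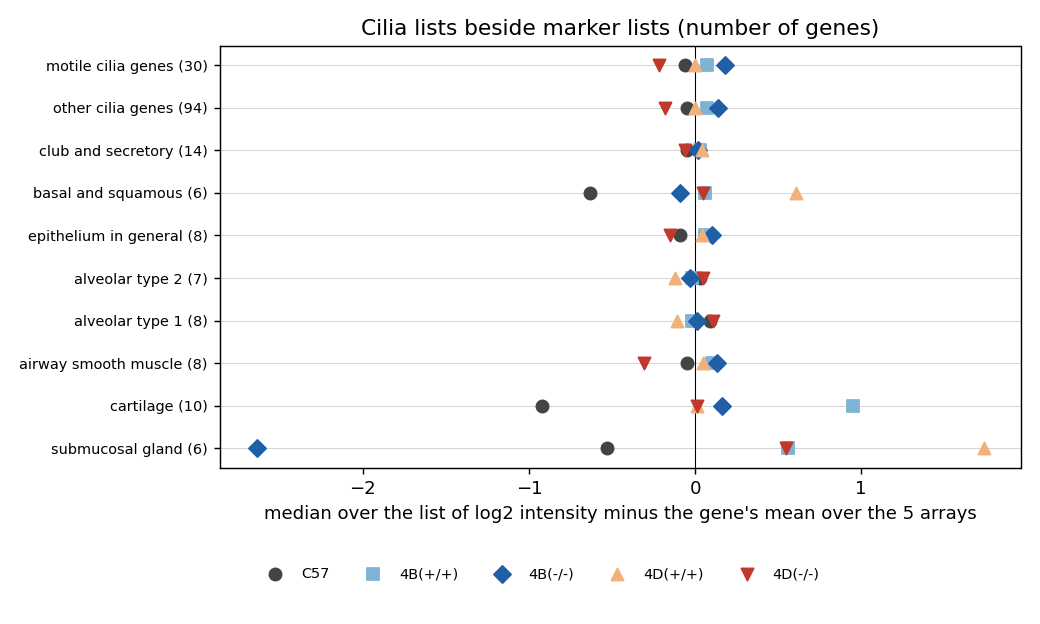
Median over each list of log2 intensity minus the gene's mean over the 5 arrays, 1 point per array, for the motile cilia genes, the other cilia genes and 8 marker lists, with the number of genes over the floor. The cilia lists run from -0.22 and -0.18 in 4D(-/-) to 0.18 and 0.14 in 4B(-/-), and the list labelled airway smooth muscle from -0.31 to 0.13 in the same arrays.

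On the arrays as a whole, the median intensity lay between 45.4 and 46.6. The 3' to 5' signal ratio of the Gapdh control, a sign of RNA quality, ranged from 1.31 in 4D(+/+) to 1.77 in 4D(-/-), and that of actin from 1.62 to 1.88. The part of RNA quality in the cilia values was not tested. Exact ties between arrays occurred for 9 of 30 members (30.0%) and 37.6% of all genes.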

How the data were processed

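Lung RNA of 5 strains was measured on 1 array each, and the 5 groups follow the labels' titles. The authors deposited intensity values per probe set on a linear scale, made with RMA per the submitters' processing notes. The sources used here do not give the version or settings of RMA or the genome build. Values were taken to the log2 scale with pandas 2.3.3 in Python 3.11.15. The platform annotation gave 1 symbol for 34958 of 45101 probe sets, and updating symbols through the RefSeq table changed none of the member names. Genes entered the counts if at least 1 array was at or above an intensity of 64 (log2 of 6). Differences were counted past 1.5-fold and, as alternatives, 1.25-fold (a log2 difference of about 0.32) or 2-fold, all before rounding. With 1 array per group no test was run. Precision is limited by the number of arrays. The other alternatives were 2 other floors, other uses of probe sets, cyclic loess and quantile normalization (limma 3.58.1), median centring and another reference. Counting Dnaic1 and Dnaic2 was an alternative chosen after seeing the data. The members and lists were chosen with earlier results of these data known. Named were all members matched, with values in all arrays for the brightest of each role, up to 3 other cilia genes each way past 1.5-fold, and the first gene of each marker list; the values of further members were chosen for naming after they were seen. The counting was tested on simulated data.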

Additional observations from a re-analysis of the deposited data

Results flagged for a closer look

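The median of the members differed in opposite directions in the knockouts, and this difference between the lines was not tested because each group has 1 array. The median difference was 0.09 on the log2 scale for PDE4B and -0.20 for PDE4D, 0.29 apart. Ccdc153 was apart by 0.79, Pifo by 0.78, Tekt4 by 0.71 and Tekt1 by 0.62 on the log2 scale, each higher in 4B(-/-) and lower in 4D(-/-) than its own wild type. In all, 17 of 30 members (56.7%) and 54 of 94 other cilia genes (57.4%) were higher in 4B(-/-) and lower in 4D(-/-), against 29.2% of all genes. Among these 54, Dnah7a, Spata17, Ropn1l and Ulk4 reached the floor in 4B(-/-) only, so their entry rested on that array. Rfx3, Ccdc39, Ccdc40 and Spag16 ran in reverse in the probe sets used. Below the floor, 1 Spag16 probe set had 0.22 for PDE4B and -0.43 for PDE4D, and another had -0.40 and 0.09. The dim Rfx3 probe set had 0.07 and -0.12. The PDE4B side was slight, with 1 of 30 members higher at a log2 difference of 0.32, against 2.61% of all genes. Smooth muscle genes had medians of 0.02 and -0.40 in the same comparisons.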

How the results depend on the processing

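Of 230 member values recomputed under the alternatives 215 stayed within 1.5 times (counts) or 0.1 (medians, log2). Most counts were 0 as reported, and a count of 0 at 1.5-fold must stay 0 at 2-fold. Much of this share was thus fixed in advance. The counts above 0, higher in 4B(-/-) than C57 and lower in 4D(-/-) than 4B(-/-), moved at the lower threshold and at 2-fold. All 66 medians stayed within 0.1, and 0 of them turned direction. They ran from 0.07 to 0.16 for PDE4B (0.16 with C57 and both wild-type lines averaged as the reference). For PDE4D they ran from -0.28 to -0.13 and between the knockouts from -0.49 to -0.34. At the lower threshold, a log2 difference of 0.32, 1 member was higher in the PDE4B knockout and 9 lower in the PDE4D knockout. Against C57 2 were higher in 4B(+/+), 3 higher and 1 lower in 4D(+/+), 10 higher in 4B(-/-) and 2 lower in 4D(-/-). Between the knockouts 16 were lower and 1 higher. At 2-fold the members higher in 4B(-/-) than C57, and those lower in 4D(-/-) than 4B(-/-), numbered 0. Without a floor 1 was higher in the PDE4B knockout, the dim Spag6. With every probe set counted 1 was lower in the PDE4D knockout and 1 higher in 4B(+/+) than C57, both the second probe set of Cfap52. With Dnaic1 and Dnaic2 counted, chosen after seeing the data, 1 was lower in 4B(-/-) than C57, Dnaic2. Of 68 medians of other lists 12 moved by over 0.1 when each gene took the median over its probe sets. In the PDE4D comparison club genes went to -0.09 and cartilage genes to 0.05, both turning direction, basal genes to -0.40, dynein assembly factors to -0.08 and docking and further dyneins to -0.46. No paired analysis was possible because each group has 1 array. Dim probe sets, among them most dynein heavy chains, limit what differences could be seen.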
